A study of Oryza sativa Japonica Group with 6 samples.

Results

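The 26S proteasome is the protease complex that degrades proteins tagged with ubiquitin. Its 20S core is a barrel in which rings of alpha subunits form the gated entrance and rings of beta subunits hold the proteolytic sites. Its 19S regulatory particle sits on the end of the barrel: the RPT subunits are AAA ATPases that unfold substrates, and the RPN subunits are non-ATPases that bind ubiquitin, remove it or hold the particle together. The cDNA probes studied here were those whose description on the array names a proteasome subunit by the word proteasome, by 26S protease or by a rice subunit name such as OsPBC1 or OsRPN10. This rule used no measured value and found 59 of 21495 probes, of which 22 were 20S core probes (13 alpha and 9 beta), 35 were 19S probes (12 RPT, 18 RPN and 5 whose kind the description does not state) and 2 named neither particle. No proteasome inhibitor, activator or assembly factor was among them.

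The arrays compared coleoptiles of the *rad* mutant (reduced adh activity) with coleoptiles of wild type, both of the rice cultivar Kinmaze and both germinated under submergence in deionized water. The coleoptile is the sheath around the first leaf, and ADH is alcohol dehydrogenase, the last enzyme of ethanol fermentation. Tissue was cut from fixed, frozen sections by laser microdissection and its RNA was amplified before labelling, and no label says whether the numbered samples came from separate plants or bottles. The p-values therefore cover only the variation among these samples, part or all of which may be technical. The labels give neither the mutated gene nor the number of mutant lines or seedlings behind a sample.

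The 6 two-colour arrays held 3 numbered replicates, each hybridised once with the mutant in Cy5 and once with the mutant in Cy3. Values below are log2 ratios of mutant over wild type, averaged over the arrays of a dye-swap pair, so that n = 3 replicates, and a probe was called lower or higher at an adjusted p under 0.05 (limma, two-sided, Benjamini-Hochberg over all 19947 tested probes). Of the 59 proteasome probes 56 were tested, and each of these was well above background in both genotypes on all 6 arrays, with 0 saturated spots among them. An OsRPN11 probe (AK110999) and a probe described as the product of Arabidopsis At2g39990 (AK110114) were too dim, and an OsRPT1 probe (AK070538) had an outlier spot. The 56 probes stand for 40 subunit names, and several probes of one subunit may report the same transcript. Between 90.4% and 95.7% of probes were well above background in a channel. The median half-width of a 95% interval was 0.12 for the proteasome probes.

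Proteasome transcripts differed little between the genotypes, and those called were all lower in the mutant. Of the 56 tested probes 8 were called lower (14.3%, against 10.1% of all tested probes) and 0 were called higher (14.6% of all tested probes were), by limma. At an unadjusted p under 0.05 the counts were 17 lower and 2 higher. The mean ratio was below 0 for 41 probes (73.2%, against 53.2% of all tested probes) and above 0 for 15. The median was -0.071, against -0.0097 for all tested probes. Ratios ran from -0.30 for OsPBC1 to 0.15 for a probe described as regulatory subunit S2. None of the 56 changed by 2-fold, which 553 of all tested probes did. In 28 probes all 3 replicates were below 0 (50% of the proteasome probes, against 32.7% of all tested probes), and in 4 all 3 were above 0 (7.14%, against 29.9%). On all 6 arrays 17 probes were below 0 (30.4%, against 17.9% of all tested probes), and 1 was above 0 (20.1% of all tested probes were), an OsPAA2 probe. The typical size of a proteasome ratio was not large: the median of the absolute values was 0.089, against 0.095 for all tested probes. In such bulk tissue, fewer cells of a type and less RNA per cell cannot be told apart.

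**Figure D1:**
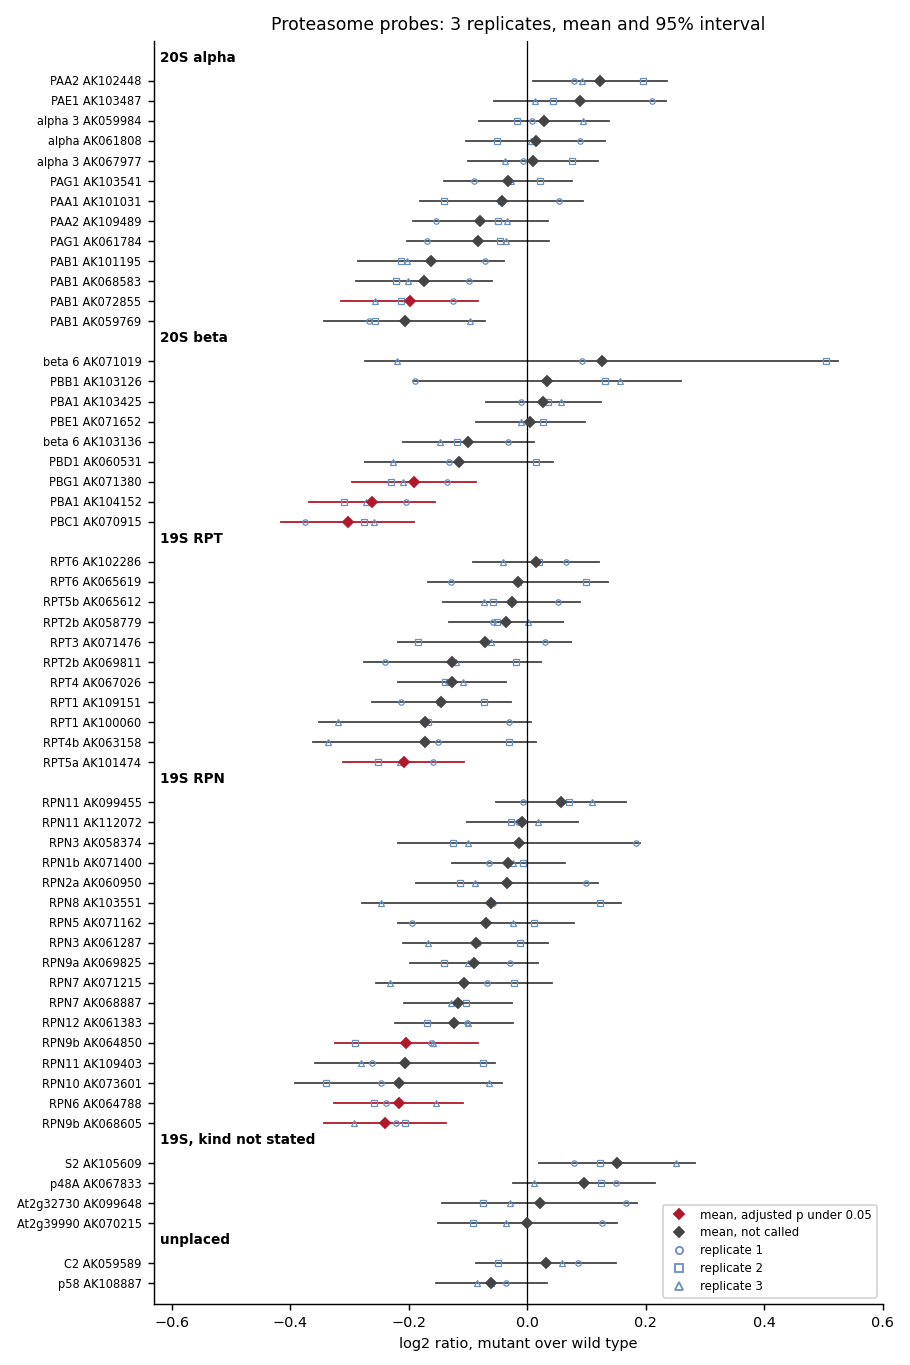
Log2 ratio of mutant over wild type (horizontal axis) for the 56 tested proteasome probes, grouped by subunit class; open symbols are the 3 replicates, diamonds their mean and lines the 95% interval from limma, with probes called lower in red. Most diamonds lie left of 0, and the means run from -0.30 for PBC1 to 0.15 for S2.

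The alpha subunits of the core form the outer rings and the gate. Of their 13 probes 1 was called lower (7.69%, against 10.1% of all tested probes). The median was -0.044, and 8 means were below 0 (53.2% of all tested probes were). The lower values came together in OsPAB1, the alpha 2 subunit, which has 4 probes. The called one (AK072855) stood at -0.13, -0.21 and -0.26 in replicates 1, 2 and 3, a mean of -0.20 ± 0.067 (SD, n = 3, limma adjusted p = 0.038). AK059769 had -0.27, -0.26 and -0.098 (mean -0.21, adjusted p = 0.051). AK068583 had -0.099, -0.22 and -0.20 (mean -0.17, adjusted p = 0.051), and AK101195 had -0.071, -0.21 and -0.20 (mean -0.16, adjusted p = 0.072). All 4 probes were below 0 on all 6 arrays, and their means lay within 0.045 of each other, although only the first passed the threshold.

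The other alpha subunits stood near 0 or disagreed between probes. OsPAA2, an alpha 1 subunit, had the highest value of the class in AK102448, at 0.079, 0.20 and 0.092 (mean 0.12 ± 0.064, limma adjusted p = 0.11). Its other probe, AK109489, was below 0 in every replicate, at -0.15, -0.050 and -0.035 (mean -0.080, adjusted p = 0.25), so the subunit had no common direction. OsPAA1, the other alpha 1 subunit, had a mean of -0.044 in its only probe (AK101031) with replicates on both sides of 0. OsPAE1, the alpha 5 subunit, stood at 0.21, 0.044 and 0.013 (AK103487, mean 0.089, adjusted p = 0.30). Both OsPAG1 probes, for alpha 7, were slightly below 0 (AK061784 at -0.084 and AK103541 at -0.033), and both alpha 3 probes slightly above (AK059984 at 0.028 and AK067977 at 0.0099), as was a probe described only as an alpha subunit (AK061808 at 0.014). None of these passed the test.

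The beta subunits carry the active sites on the inner face of the barrel. Of their 9 probes 3 were called lower (33.3%, against 10.1% of all tested probes), and the median was -0.10. OsPBC1, the beta 3 subunit and one without a proteolytic site, had the lowest ratio of all proteasome probes. It stood at -0.38, -0.28 and -0.26 in the 3 replicates (AK070915, mean -0.30 ± 0.064, limma adjusted p = 0.014), a change with a 95% interval of -25.1% to -12.4%. Its log2 normalized signal over the 6 arrays had a lowest value, median and highest value of 10.60, 10.64 and 10.82 in the mutant, and of 10.74, 10.97 and 11.18 in wild type. The signal was lower in the mutant on each of the 6 arrays, and 5 of the 6 mutant signals lay below the lowest wild-type signal. OsPBG1, the beta 7 subunit, also without a proteolytic site, stood at -0.14, -0.23 and -0.21 (AK071380, mean -0.19 ± 0.050, adjusted p = 0.033).

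OsPBA1 is the beta 1 subunit, whose site cleaves after acidic residues. Its probe AK104152 was called lower, at -0.20, -0.31 and -0.27 (mean -0.26 ± 0.053, limma adjusted p = 0.017). Its signals were 8.80, 8.99 and 9.15 (lowest, median, highest) in the mutant and 8.99, 9.31 and 9.42 in wild type, so the ranges overlapped across arrays, while the mutant signal was lower on each single array. The other OsPBA1 probe, AK103425, stood at -0.011, 0.035 and 0.057 (mean 0.027, adjusted p = 0.63). AK104152 lay below AK103425 by 0.19, 0.34 and 0.33 in replicates 1, 2 and 3, and the 95% intervals of the probes (-0.37 to -0.16 and -0.070 to 0.12) did not overlap.

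The probes of the other beta subunits were not called, including those of the other catalytic subunits, OsPBE1 and OsPBB1. OsPBE1, the beta 5 subunit with the chymotrypsin-like site, stood at -0.00015, 0.026 and -0.010 (AK071652, mean 0.0052 ± 0.019), with a 95% interval of -5.85% to 6.98%. OsPBB1, the beta 2 subunit with the trypsin-like site, differed in sign between replicates, at -0.19, 0.13 and 0.16 (AK103126, mean 0.033 ± 0.19). OsPBD1, the beta 4 subunit, had -0.13, 0.015 and -0.23 (AK060531, mean -0.11, limma adjusted p = 0.23). The beta 6 probes disagreed: AK103136 had -0.033, -0.12 and -0.15 (mean -0.10, adjusted p = 0.16), and AK071019 had 0.092, 0.50 and -0.22 (mean 0.13 ± 0.36). That last spread was the widest among the proteasome probes, and without replicate 2 the mean was below 0.

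**Figure D2:**
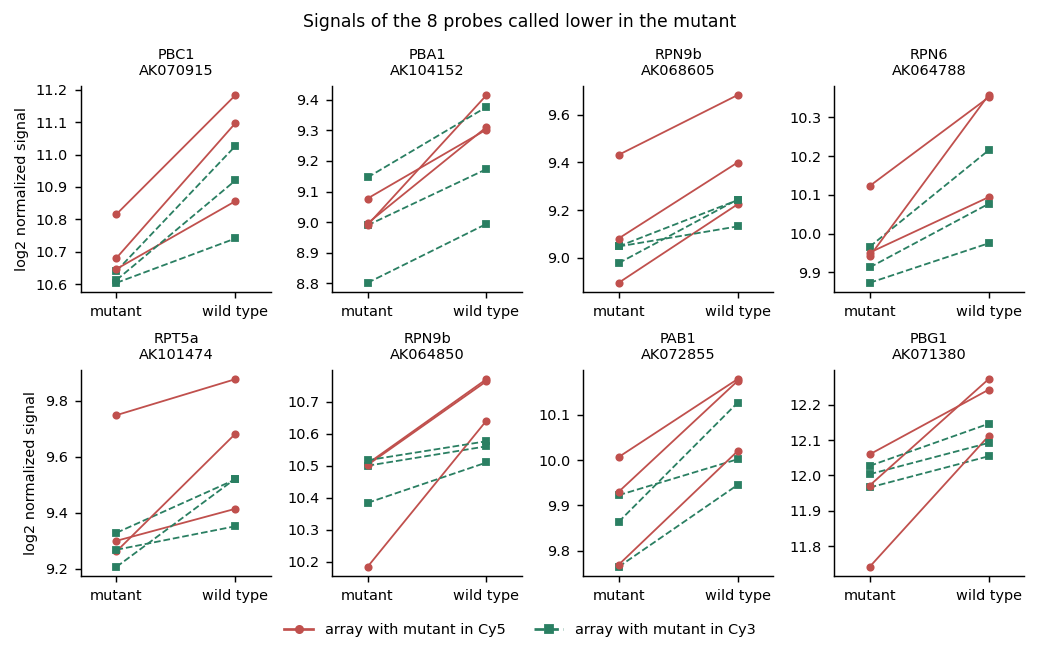
Log2 normalized signal (vertical axis, own scale in each panel) of the 8 probes called lower, in the mutant (left) and wild type (right); each line is 1 array, solid with the mutant in Cy5 and dashed with the mutant in Cy3. Every line climbs toward wild type on all 6 arrays, but the signals of the genotypes overlap across arrays in each panel.

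The RPT subunits form the ATPase ring of the 19S particle. Of 11 tested probes 1 was called lower (9.09%, against 10.1% of all tested probes). The median was -0.13, and 10 means were below 0 (53.2% of all tested probes were). OsRPT5a had -0.16, -0.25 and -0.22 (AK101474, mean -0.21 ± 0.047, limma adjusted p = 0.026). Its paralogue OsRPT5b had 0.051, -0.058 and -0.074 (AK065612, mean -0.027, adjusted p = 0.69), and the difference between the paralogues was not tested. OsRPT4 was at -0.13, -0.14 and -0.11 (AK067026, mean -0.13 ± 0.016, adjusted p = 0.063), a value below 0 on all 6 arrays that did not pass. OsRPT4b had a mean of -0.17 (AK063158, adjusted p = 0.15), with replicates from -0.34 to -0.030.

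Other RPT subunits had values of the same sign or near 0. Both tested OsRPT1 probes were below 0 in every replicate (AK109151 at -0.15 with adjusted p = 0.082, AK100060 at -0.17 with adjusted p = 0.14). The OsRPT2b probes stood at -0.13 (AK069811, adjusted p = 0.18) and -0.036 (AK058779). OsRPT3 had a mean of -0.072 (AK071476), with replicate 1 above 0. OsRPT6 stood at 0.014 in AK102286, the highest of the class, and at -0.015 in AK065619, so its probes lay on either side of 0 and close to it.

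Of 17 tested RPN probes 3 were called lower (17.6%, against 10.1% of all tested probes). Their median was -0.090, and 16 means were below 0 (53.2% of all tested probes were). The RPN text pattern also matched the 4 tested 19S probes of unstated kind. Those were set apart by hand, and 3 of their 4 means were above 0. OsRPN9b, a structural subunit with a PCI domain, was called lower in both of its probes. AK068605 stood at -0.22, -0.21 and -0.29 (mean -0.24 ± 0.046, limma adjusted p = 0.018), and AK064850 at -0.16, -0.29 and -0.16 (mean -0.20 ± 0.075, adjusted p = 0.039). The paralogue OsRPN9a had -0.029, -0.14 and -0.099 (AK069825, mean -0.090, adjusted p = 0.19). OsRPN6, another PCI subunit, known in yeast to clamp the core and the regulatory particle together, had -0.24, -0.26 and -0.15 (AK064788, mean -0.22 ± 0.056, adjusted p = 0.026).

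Subunits that handle ubiquitin did not pass the test. OsRPN10, a ubiquitin receptor, had -0.25, -0.34 and -0.065 (AK073601, mean -0.22 ± 0.14, limma adjusted p = 0.081) and was below 0 on all 6 arrays. OsRPN11, the metalloprotease that removes ubiquitin chains, gave a different value in each of its 3 tested probes. AK109403 had -0.26, -0.074 and -0.28 (mean -0.21, adjusted p = 0.067), AK112072 had a mean of -0.0084, and AK099455 had -0.0082, 0.070 and 0.11 (mean 0.057, adjusted p = 0.37). The subunit thus spanned 0.26 between its probes.

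The remaining subunits of the RPN class, mostly structural, were below 0 without passing. OsRPN12 had a mean of -0.12 (AK061383, limma adjusted p = 0.081), and the OsRPN7 probes had -0.12 (AK068887, adjusted p = 0.075) and -0.11 (AK071215, adjusted p = 0.24). All 3 replicates were below 0 in each of these. OsRPN3 stood at -0.088 (AK061287) and -0.015 (AK058374, where replicate 1 was 0.18). Means between -0.070 and -0.032 were found for OsRPN5 (AK071162), OsRPN8 (AK103551), OsRPN2a (AK060950) and OsRPN1b (AK071400). RPN1 and RPN2 are the large scaffold subunits of the particle.

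The 19S probes whose description states no kind had a median of 0.058 over the 4 tested, and 0 of them were called. The probe described as Arabidopsis S2 (At2g20580, known in Arabidopsis as an RPN1 gene) had the highest proteasome ratio, at 0.078, 0.12 and 0.25 (AK105609, mean 0.15 ± 0.090, limma adjusted p = 0.098). The probe described as Drosophila p48A had 0.15, 0.12 and 0.011 (AK067833, mean 0.095, adjusted p = 0.20). The probes named after Arabidopsis At2g32730, an RPN2 gene, and At2g39990 were near 0 (AK099648 at 0.021, AK070215 at -0.00034). The description of At2g39990 is that of the array: this Arabidopsis gene is known as a subunit of translation initiation factor eIF3. Of the probes that name no particle, the C2 subunit had 0.031 (AK059589) and p58 had -0.061 (AK108887, below 0 on all 6 arrays, adjusted p = 0.28).

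Agreement between probes of one subunit bears on how far a subunit can be given 1 value. Several tested probes were present for 13 subunits, and in 4 of these (OsPAA2, OsPBA1, OsRPN11 and beta 6) the probes' means spanned over 0.2. A call was made in 3 of the 13, OsPAB1, OsPBA1 and OsRPN9b, and only in OsRPN9b was every probe called. With the replicate means of a subunit's probes averaged, 29 of 40 subunits were below 0 and 11 above. With 1 probe per description, 5 of 41 were called lower, where 10.1% of all tested probes were, and the median was -0.044.

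**Figure D3:**
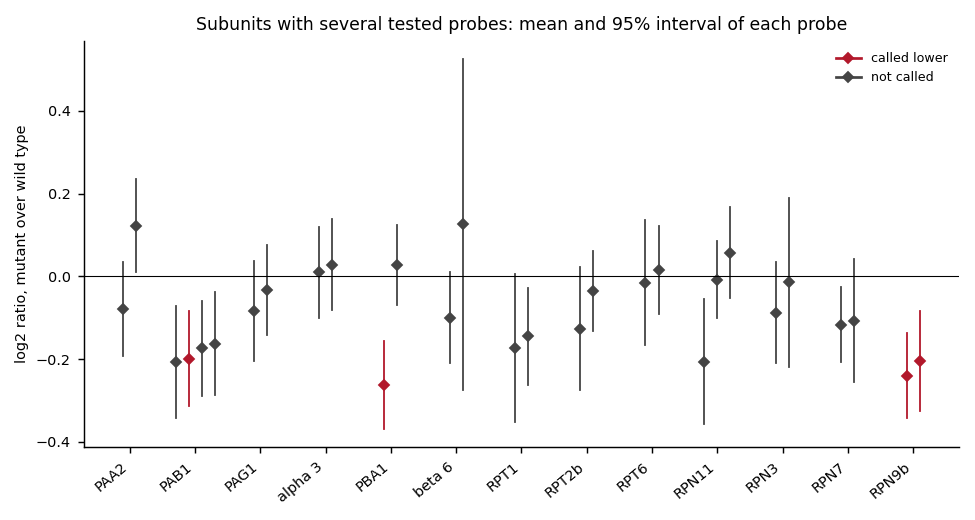
Mean mutant over wild type ratio (log2, vertical axis) with its 95% interval for each probe of the 13 subunits with several tested probes, ordered by class; red marks probes called lower. The 4 PAB1 probes lie between -0.21 and -0.16 and both RPN9b probes were called, whereas the PBA1 probes stand at -0.26 and 0.027.

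The rings and particles were then compared. The 20S core had 4 of 22 tested probes called lower (18.2%) and a median of -0.062. The 19S particle had 4 of 32 (12.5%) and -0.080. Of all tested probes 10.1% were called lower. The difference of the medians, 20S minus 19S, was 0.018, and in replicates 1, 2 and 3 it was -0.015, 0.026 and 0.059 (SD 0.037). Its sign differed between the replicates and its size was within their spread. From the arrays that carried the mutant in Cy3 alone it was -0.028. Probes are not replicates of a particle, so the difference was given no test.

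Dye orientation moved with the size of the shift. Where Cy5 marked the mutant, the proteasome median was -0.12, -0.13 and -0.12 in replicates 1, 2 and 3, and where Cy3 did, it was 0.00021, -0.0041 and -0.049. The medians of all tested probes were between -0.014 and 0.0083 on the 6 arrays. Averaged over replicates, 47 of 56 proteasome probes were below 0 for mutants labelled with Cy5, and 28 of 56 for mutants labelled with Cy3. Means were below 0 in the Cy5-labelled mutant and above 0 in the Cy3-labelled mutant for 22 probes (39.3%, against 13.0% of all tested probes), the reverse held for 3, and 25 were below 0 in both orientations. A dye effect cancels in the mean of a swapped pair, and its part in the difference between orientations was not tested.

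Calls followed the same pattern. Fitted on the 3 arrays of Cy5-labelled mutants, 16 proteasome probes were called lower (28.6%, against 11.1% of all tested probes) and 7 of the 8 calls held. Fitted on the 3 arrays of Cy3-labelled mutants, 4 were called lower (7.14%, against 10.9%), namely OsPBC1 (-0.28), OsPBA1 (AK104152, -0.20), OsPAB1 (AK059769, -0.23) and OsRPT4 (AK067026, -0.17), and 1 was called higher, the C2 subunit (AK059589, 0.16; 13.9% of all tested probes were called higher). OsPBC1 and the OsPBA1 probe AK104152 were thus called in both orientations. OsRPT5a had nearly the same mean in each, -0.22 for Cy5 and -0.20 for Cy3 as the mutant's dye, but was called in neither. Its SD over the 3 arrays was 0.17 for Cy5 and 0.12 for Cy3. OsRPN9b AK064850 had -0.33 and -0.082, and was called for Cy5 only.

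**Figure D4:**
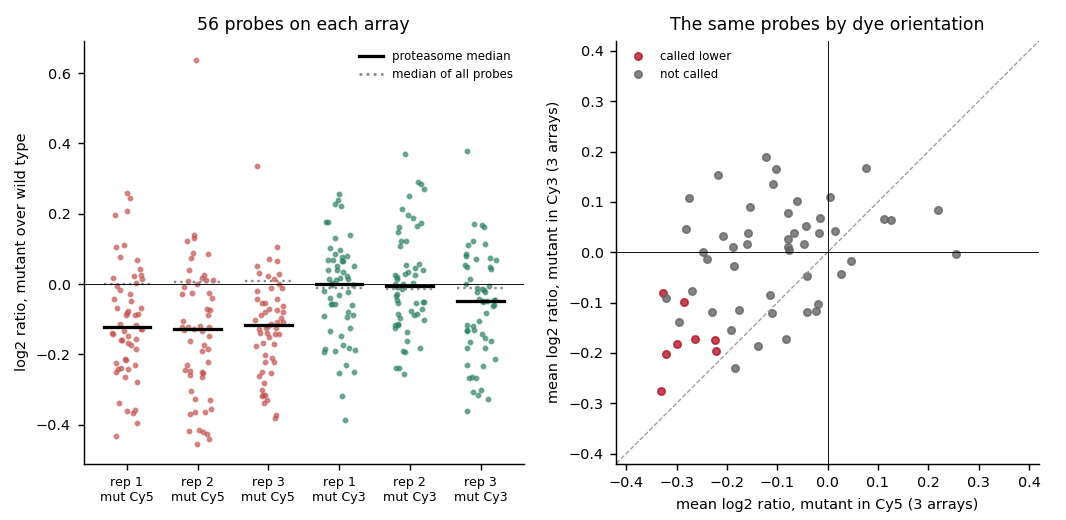
Left, log2 ratios of mutant over wild type (vertical axis) of the 56 proteasome probes on each array (points), with their median (black) and that of all tested probes (dotted); right, each probe's mean over the 3 arrays of Cy5-labelled mutants (horizontal) and of Cy3-labelled mutants (vertical), called probes in red and equality dashed. Proteasome medians lie near -0.12 for Cy5-labelled mutants and between -0.049 and 0.00021 for Cy3-labelled mutants, and the 8 called probes are below 0 in both.

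The calls rested on all 3 replicates. Without replicate 1, and likewise without replicate 2, 0 proteasome probes were called lower by limma (2.67% and 2.15% of all tested probes were), with 14 and 8 at an unadjusted p under 0.05 in either direction. Without replicate 3, 5 were called (9.16% of all tested probes were), among them 3 of the 8: OsPBC1, the OsPBA1 probe AK104152 and OsRPN6. The proteasome median without a replicate was between -0.082 and -0.052. On the scanner's processed signals 5 of the 8 calls held (9.90% of all tested probes were called lower), those of OsPBC1, OsPBA1 AK104152, OsRPN6, OsRPN9b AK068605 and OsRPT5a. In a fit of all 6 arrays with the replicate block, 16 were called lower (14.6% of all tested probes were), which included all 8 and added the other 3 OsPAB1 probes, OsRPN10, OsRPN11 AK109403, OsRPT1 AK109151, OsRPT4 and OsRPT4b. With a dye term beside the block 14 were called lower (25%, against 13.5% of all tested probes), of which 6 were among the 8. OsRPN6 (AK064788, adjusted p = 0.056) and OsRPT5a (AK101474, adjusted p = 0.15) were not called.

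Genes that act before the proteasome were read by text patterns on the descriptions. Ubiquitin is activated by E1 enzymes, carried by E2 enzymes and joined to targets by ligases such as the SCF complex, whose cullin is controlled by the COP9 signalosome. RAD23 shuttles and the CDC48 ATPase bring tagged proteins to the proteasome, and deubiquitinases recover ubiquitin. Calls are read against the 14.6% of all tested probes called higher and the 10.1% called lower. Of 10 ubiquitin genes 3 were higher and 1 lower, of 24 E1 and E2 probes 6 were higher (25%) and 2 lower (8.33%), and of 16 deubiquitinases 2 were higher (12.5%) and 1 lower (6.25%). Of 19 SCF probes 3 were higher (15.8%), of 5 COP9 probes 1, and of 7 shuttle and CDC48 probes 2, with 0 lower in each of these 3 lists (1, 0 and 1 below 0 at an unadjusted p under 0.05, limma). List medians were -0.022, 0.094, -0.052, 0.028, 0.0036 and 0.14 in that order. The shares of deubiquitinases and SCF probes called higher lay near that of all tested probes, and no test was made of any list's share. The lists came from text matches. The SCF pattern took cullins of any kind, cullin 3 among them. It also took a cyclophilin (ROC14), the rice homeobox genes named Roc1 and F-box proteins that bind SKP1. Its 3 higher probes were a cullin 3 (AK069061), a Skp1 (AK073278) and the SKP1 partner SKIP2 (AK071138). The 15.8% is therefore not a share of SCF core subunits alone. The 6 higher E1 and E2 probes included At2g21470 (AK072668), known in Arabidopsis as a SUMO-activating enzyme subunit. They also included a probe described as an Arabidopsis protein like a ubiquitin activating enzyme (At4g24940, AK111924, mean 0.22). The probes described as wheat ubiquitin activating enzyme E1 were not called. They stood at 0.33 (AK074007, limma adjusted p = 0.29), -0.011 (AK111781, adjusted p = 0.85) and -0.011 (AK104898, adjusted p = 0.86).

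Single members of these lists had larger ratios than any proteasome probe. The rub1 polyubiquitin probe AK061956 had 1.42, 1.20 and 1.04 (mean 1.22 ± 0.19, limma adjusted p = 0.0045), and the other rub1 probe AK067024 had 0.82, 0.71 and 0.52 (mean 0.68, adjusted p = 0.0077). OsUBC5b, an E2 enzyme, stood at 1.70, 2.04 and 1.82 (AK066232, mean 1.86 ± 0.17, adjusted p = 0.0027). A probe described as an E1-like enzyme (At2g21470, known in Arabidopsis as a SUMO-activating enzyme subunit) had 0.85, 0.66 and 0.63 (AK072668, mean 0.71, adjusted p = 0.0055). These 4 were above 0 in every replicate.

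The UBP6-like deubiquitinase, an enzyme that in yeast and Arabidopsis binds the proteasome itself, had 0.52, 0.26 and 0.32 (AK066233, mean 0.37 ± 0.14, limma adjusted p = 0.023), and a UBP16-like one had a mean of 0.41 (AK099704, adjusted p = 0.010). A cullin 3 probe had a mean of 0.34 ± 0.034 (AK069061, adjusted p = 0.0082), and a Skp1 probe had 1.81, 2.32 and 0.94 (AK073278, mean 1.69, adjusted p = 0.020). The other cullin 3 probes were not called (AK066234 at 0.098, adjusted p = 0.21, and AK072402 at 0.11, adjusted p = 0.22). Nor were the other SKP1 probes, at 0.26 (AK064628), 0.042 (AK107960), 0.023 (AK070953) and -0.029 (AK102131). The CSN6B-like COP9 subunit was at 0.59 ± 0.073 (AK068389, adjusted p = 0.0050), while another subunit 6 probe varied too much to call (AK106674, -0.22 ± 0.50, adjusted p = 0.47). Of the osRAD23 probes, AK063768 had a mean of 0.17 (adjusted p = 0.044) and AK103728 had 0.91, 0.70 and 0.21 (mean 0.61 ± 0.35, adjusted p = 0.049). The other osRAD23 probes were not called: AK066105 lay the other way, at -0.24, -0.27 and -0.067 (mean -0.19, adjusted p = 0.074), and AK064881 had a mean of 0.11 (adjusted p = 0.13).

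**Figure D5:**
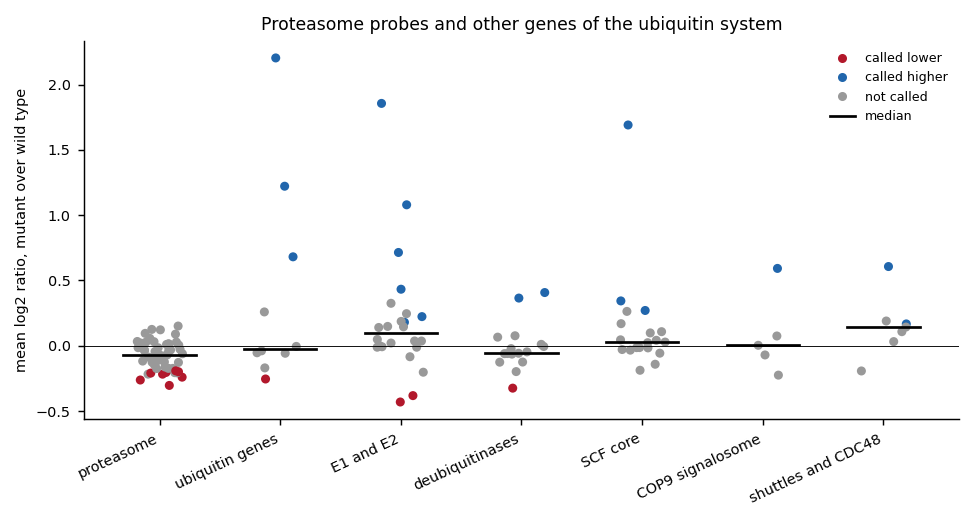
Mean mutant over wild type ratio (log2, vertical axis) of each tested probe in the proteasome list and in 6 lists of other ubiquitin-system genes; red points were called lower, blue points called higher and bars are list medians. The proteasome points stay between -0.30 and 0.15, whereas single ubiquitin, E2 and Skp1 probes lie above 1.

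Markers of other cell types were read beside these values. For comparison, 10.1% of all tested probes were called lower and 14.6% higher. Of 13 markers of dividing cells (cyclins and histones) 10 were lower in the mutant (76.9%) and 0 higher, with a median of -0.78. Several of the lower probes shared a histone H4 description and may report the same transcript. Means were below 0 for 12 probes and above 0 for 1, a histone H3 probe (AK058285, 0.21, limma adjusted p = 0.11). The summed signal of the 13 was 41416 to 51811 in the mutant and 64942 to 83237 in wild type. Of 6 tested root markers 2 were lower (33.3%) and 0 higher. Their summed signals over all 9 were 22710 to 63140 in the mutant and 59802 to 95637 in wild type. Replicate 3 stood apart here: the median of the tested root markers was -0.65, -0.66 and 0.0063 in replicates 1, 2 and 3, and their summed signal was lower in the mutant on 4 of 6 arrays. Of 38 tested leaf photosynthesis markers 10 were lower (26.3%) and 2 higher (5.26%). Summed over all 44, their signal was 35141 to 39853 in the mutant and 31627 to 37061 in wild type. Of 21 tested storage markers 1 was lower and 1 higher (4.76% each). The sum over all 25 was 5527 to 5869 in the mutant and 6447 to 7597 in wild type. Of 9 tested vascular markers 0 were lower and 0 higher (0 at an unadjusted p under 0.05, limma). All 9 means were below 0 (53.2% of all tested probes were), with a median of -0.061. The vascular pattern matched only probes described as laccases, so these values are those of 1 enzyme family. The sum over all 11 was 2917 to 4804 in the mutant and 3135 to 5006 in wild type. The storage pattern also took the word allergen, and both of its called probes came from that word and are no storage proteins. They were a beta-expansin (AK107184, -1.37) and a pollen allergen (AK067214, 1.09), named after their values were seen. Both are part of the storage sum, which is therefore not a signal of storage proteins alone. On no array was 1 root marker or were 2 storage markers well above background, and no marker of the coleoptile itself was read. The part of these shifts in the lower proteasome transcripts was not tested.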

How the data were processed

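Per the labels' protocols, RNA of microdissected coleoptiles was amplified into Cy3- and Cy5-labelled cRNA. The arrays (Agilent design 012106) were read with Feature Extraction 8.5.1.1, per the file headers. For each spot and channel the deposited files hold the intensity, the local background intensity and flags of 0 or 1 (other), and for each spot a log10 ratio (Cy5 over Cy3). The authors' deposited value table matched that log10 ratio to within 5e-06, with the sign turned on colour-swapped arrays, so that it runs as mutant over wild type, with column medians of -0.000509 to 0 and no further scaling.

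Ratios were computed with limma 3.58.1 (R 4.3.3): normexp with an offset of 50, loess with control spots at weight 0, mutant over wild type. Probes well above background in a genotype on at least 4 of 6 arrays passed (20213), less 266 with an outlier spot. Dye-swap pairs were averaged and an intercept was fitted over 3 replicates (lmFit, eBayes). That same-numbered arrays pair comes from the titles, and their deviations correlated at 0.81, 0.66 and 0.84. Signals are per channel after loess and Aquantile. The fit was also run on simulated data. Every planted shift was larger than any mean proteasome ratio, so that run does not bear on calls of their size.

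The members, lists and tests were chosen with earlier results of these data known. Probes named were all called members, in each class the 3 with the smallest p and the highest and lowest, subunits with several probes, and of each related list the 2 with the smallest p; the others were added to account for every member. Subunit classes came from the descriptions, with 5 placed by hand. These were the 19S probes of unstated kind, which the RPN pattern would have taken. RefSeq gene names of assembly GCF_034140825.1 matched 12 subunits by name only and are not used. Alternatives covered background correction, normalization, filters, dye orientation, the replicate block, variance moderation and each replicate left out.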

Additional observations from a re-analysis of the deposited data

How the results depend on the processing

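The proteasome count of 8 lower probes moved by over 1.5 times under several settings. It was 5 with a normexp offset of 0, on the scanner's processed signals, in the authors' deposited value table and with 1 probe per description, 16 with the mutant in Cy5 only, 4 (and 1 higher) with the mutant in Cy3 only, 16 in the paired fit with the replicate block and 14 with the replicate block and a dye term. Leaving out 1 replicate gave 0 to 5 lower proteasome probes, and 429 to 1827 lower and 755 to 2746 higher among all tested probes, where all 3 replicates gave 2009 and 2920. Leaving out 1 replicate leaves fewer residual degrees of freedom. The proteasome median of -0.071 was -0.10 with median centring, -0.12 with the mutant in Cy5 only, -0.0019 with the mutant in Cy3 only and -0.044 with 1 probe per description, and it ran from -0.082 to -0.052 without a replicate. The difference of 20S minus 19S medians (0.018) was 0.047 with the mutant in Cy5 only, -0.028 with the mutant in Cy3 only, 0.00075 with median centring, 0.0093 with no filter on dim probes and 0.010 with outlier spots kept, and ran from 0.015 to 0.064 without a replicate. The cause of these moves was not tested, other than that fewer probes or replicates entered where some were left out. The counts stayed within 1.5 times with no background subtraction, no filter on dim probes (8 of 58), a filter on both genotypes on all arrays, outlier spots kept (8 of 57), median centring (12) and eBayes with trend and robust (10). Leaving out the probes described by At2g39990, an alternative chosen after seeing the data, left 8 of 55 lower and a median of -0.072. No proteasome probe named changed sign with a call under any setting run. The lowest signal over local background among the tested probes was 2.08, and the effect of signal depth on their ratios was not tested.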
